A study of Homo sapiens with 4 samples.

Results

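The zinc finger gene cluster at the tip of the short arm of chromosome 4 (band 4p16.3) was followed through 4 RNA libraries of human embryonic stem cells. The 5 protein-coding genes ZNF595, ZNF718, ZNF732, ZNF141 and ZNF721 were taken by name, 5 of the 60483 genes counted. The members were chosen by measured values of this comparison: the near loss of ZNF595 from both libraries of SLC35F2 knockout cells, and of ZNF732 from KO replicate 2, had drawn attention to the locus. The difference between knockout and control therefore describes these genes and is not a test of them. All 5 passed the filter on low counts, although ZNF595 had no more than 2 reads in either knockout library.

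All libraries came from H9 (WA09), a long-used line of human embryonic stem cells. The groups were 2 libraries from control cells with the genotype label control and 2 from cells labelled SLC35F2 KO, with no treatment or time point. SLC35F2 is a solute carrier of the cell membrane that is described as a carrier of queuine, a base used in transfer RNA modification. The labels give neither the clones nor the guide and do not say how the control cells were handled. They also do not state that replicates are separate cultures. The chi-square per degree of freedom was 36.2 for the control pair and 77.1 for the KO pair, well above the level of counting error alone. Whether this spread is technical or arose in the cells was not tested.

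KRAB zinc finger proteins are the largest family of transcription factors in the human genome. Their tandem C2H2 zinc fingers read DNA, many of them at transposable elements, and their KRAB domain binds the co-repressor TRIM28, also called KAP1, which brings in the histone methyltransferase SETDB1. The genes arose by tandem duplication and lie in clusters, most of them on chromosome 19, and the fingers of neighbours resemble each other closely. Binding to LINE-1 elements has been reported for ZNF141, a member of the cluster on chromosome 4.

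By GENCODE 29 on GRCh38, the 5 genes spanned 445872 bases. Positions and strands are those of GENCODE 29, while the identifiers carry the version numbers of the deposited counts, which are lower than those of GENCODE 29. ZNF595 lies nearest the telomere (ENSG00000272602.4, chromosome 4, 53285 to 88211, plus strand), followed by ZNF718 (ENSG00000250312.5, 124480 to 202303, plus strand). ZNF732 (ENSG00000186777.10, 270675 to 305321) lies on the minus strand, ZNF141 (ENSG00000131127.12, 337814 to 384864) on the plus strand and ZNF721 (ENSG00000182903.14, 425815 to 499156) on the minus strand. The stretch of coding sequence for the core of the KRAB domain shows how close the copies are. Each stretch below runs 5′ to 3′ over 96 bases of the GENCODE transcript, and capitals mark the bases that differ from ZNF595.
ZNF595: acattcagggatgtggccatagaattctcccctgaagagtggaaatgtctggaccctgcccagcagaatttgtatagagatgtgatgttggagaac
ZNF718: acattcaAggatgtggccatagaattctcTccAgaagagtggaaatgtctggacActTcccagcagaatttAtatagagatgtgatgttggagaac
ZNF732: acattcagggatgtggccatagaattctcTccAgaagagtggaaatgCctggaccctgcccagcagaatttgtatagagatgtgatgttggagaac
ZNF141: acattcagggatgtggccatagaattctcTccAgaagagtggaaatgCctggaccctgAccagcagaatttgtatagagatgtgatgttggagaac
ZNF721: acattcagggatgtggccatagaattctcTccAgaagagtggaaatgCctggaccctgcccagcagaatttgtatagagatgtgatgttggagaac

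ZNF732 and ZNF721 each differed from ZNF595 at 3 of these bases, ZNF141 at 4 and ZNF718 at 6. In pairwise alignments of the coding sequence, which is 1944 bases in ZNF595, ZNF595 was 87.3% identical to ZNF141 over 1419 aligned bases, 86.4% to ZNF718 over 1430 and 83.8% to ZNF732 over 1745. ZNF732 and ZNF141 were 90.4% identical over 1407 aligned bases. In translated GENCODE transcripts a match to the C2H2 finger pattern was found 17 times in ZNF595, 11 times in ZNF718, 10 times in ZNF141 and 9 times in ZNF732. ZNF721 had 23 matches, but its annotated transcripts hold the KRAB box and the fingers apart. That left 4 of the 5 members in the class of KRAB zinc finger genes used for comparison.

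Reads that fit several places were not counted, so the likeness of the copies bears on how much of each gene could be counted. All 100-base windows of the transcripts of ZNF595 and of ZNF141 (100% of each) occurred in no other annotated gene. The share was 99.7% for ZNF732, 92.9% for ZNF718 and 77.7% for ZNF721. With 50-base windows ZNF595 stood at 97.2% and ZNF732 at 95.4%. The read length is not given in the sources used here. ZNF721 shares 25.8% of its exonic bases with the pseudogene ABCA11P on the same strand, and 7.26% of those of ZNF718 lie opposite the pseudogene AC108475.1, so reads from there could be left out or misplaced.

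The promoter of ZNF595, whose RNA was nearly absent in both knockout libraries, can be set beside that of ZNF141, whose RNA was present in all 4. RefSeq sequences on GRCh38.p14 were found for 3 of the 5 members. The 250 bases upstream of the start in that table are given 5′ to 3′ on the plus strand, with each CpG dinucleotide in capitals, for ZNF595 (chr4:53071-53320) and ZNF141 (chr4:337564-337813).
ZNF595: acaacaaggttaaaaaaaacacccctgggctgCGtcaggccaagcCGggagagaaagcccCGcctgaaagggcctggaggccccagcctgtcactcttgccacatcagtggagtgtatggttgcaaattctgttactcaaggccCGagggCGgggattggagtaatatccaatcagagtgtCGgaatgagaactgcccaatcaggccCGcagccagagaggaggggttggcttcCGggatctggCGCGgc
ZNF141: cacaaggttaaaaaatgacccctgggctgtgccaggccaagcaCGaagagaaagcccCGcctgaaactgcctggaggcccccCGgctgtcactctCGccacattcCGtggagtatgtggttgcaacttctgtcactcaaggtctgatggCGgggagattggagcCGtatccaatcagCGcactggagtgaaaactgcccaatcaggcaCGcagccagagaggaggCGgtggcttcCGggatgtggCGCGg

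These 2 sequences were 85.8% identical over 246 aligned bases. The ZNF595 promoter held 10 CpG dinucleotides and that of ZNF141 held 13, and 52.2% and 46.6% of 35116 promoters in the table held at least as many. Each had 3 matches to the motif CCAAT, searched on both strands. A match was present in 32% of all these promoters, and at least 3 matches in 2.93%. The ZNF595 sequence runs past the GENCODE start of that gene at 53285, so its last bases lie within the annotated gene, while that of ZNF141 ends just before its GENCODE start. The entry for ZNF718 (chr4:127871-128120) begins at another start than the GENCODE gene, held 0 CpG dinucleotides and was 57.2% identical to that of ZNF595 in the aligned part.

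Assigned reads ranged from 27824693 to 37978705, and 14.4% to 20.3% of counted alignments were given to no single gene. Levels are given as CPM, reads per 1000000 assigned reads after scaling of the library sizes. SLC35F2 itself stood at 41.1 and 27.1 CPM in the control libraries, against 12.1 and 9.65 in the knockout ones, lower in both knockout libraries but not absent. The 7 pluripotency markers summed to 3981 to 5784 CPM, with POU5F1 at 227 to 401 CPM and NANOG at 61.2 and 64.7 CPM in the control libraries, 46.2 in KO 1 and 19.1 in KO 2. The 6 fibroblast markers summed to 258 and 523 CPM in the control libraries, to 150 in KO 1 and to 792 in KO 2. COL1A1 and COL1A2 made up most of this, while DCN had 0 reads in 3 libraries and LUM at most 4 reads. The neuroectoderm, mesoderm, endoderm and trophoblast markers summed to at most 2.59 CPM each in any library, and CGA had 0 reads in all 4. KO 2, the library in which ZNF732 was low, had the highest fibroblast sum and the lowest NANOG, and the part of these in the values of the cluster was not tested. In bulk RNA, fewer cells expressing a gene and less RNA per cell cannot be told apart.

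ZNF595 was the member with the greatest difference between the groups. The controls held 158 and 117 of its reads, whereas KO 1 held 2 and KO 2 held 1. In CPM the controls stood at 4.19 and 3.29 and the knockout libraries at 0.0727 and 0.0292. At this depth the exact Poisson intervals reached up to 0.263 CPM in KO 1 and 0.163 CPM in KO 2. Both KO libraries lay far below both controls, at 1.94% and 0.782% of the control mean. The control mean was 3.74 ± 0.632 CPM (SD, n = 2), and the KO mean was 0.0510 ± 0.0308 CPM (SD, n = 2). The log2 fold change fitted over all genes was -6.16 ± 0.87 (SE), with a 95% confidence interval from -8.08 to -4.24. Pooled over each group the reads gave a ratio of control to KO of 77.2, with an exact binomial 95% interval from 26.1 to 377 that covers counting error only.

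ZNF732 was low in 1 of the 2 KO libraries. It had 286 and 455 reads in control, 245 in KO 1 and 4 in KO 2, or 7.58, 12.8, 8.91 and 0.117 CPM. KO 1 thus lay between the controls, and the groups overlapped. The KO libraries differed from each other by a ratio of 76.2 (exact binomial 95% interval 29.4 to 282, counting error only), while control 1 stood at 0.592 of control 2. The mean of 4.51 ± 6.22 CPM (SD, n = 2) in KO therefore describes neither library. The fitted log2 fold change was -1.22 ± 1.12 (SE), with an interval from -3.88 to 1.44. It was -6.39 without KO 1 and -0.19 without KO 2.

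The other 3 members were present in all 4 libraries. ZNF141 had 889 and 683 reads in control and 484 and 503 in KO, or 23.6, 19.2, 17.6 and 14.7 CPM. Both KO values lay below both controls, with a log2 fold change of -0.41 ± 0.33 (SE, interval -1.15 to 0.34). ZNF718 had 329, 414, 307 and 249 reads in control 1, control 2, KO 1 and KO 2, or 8.72, 11.7, 11.2 and 7.28 CPM. Its groups overlapped, and its log2 fold change was -0.15 ± 0.41 (SE, interval -1.08 to 0.79). Its sign turned without control 2 (0.077) and without KO 2 (0.14). ZNF721, the most abundant member, had 1888, 3020, 1069 and 1770 reads, or 50.03, 85.0, 38.9 and 51.8 CPM. KO 2 lay above control 1, so these groups overlapped as well, and the log2 fold change was -0.57 ± 0.33 (SE, interval -1.33 to 0.19). It was -0.14 without control 2 and -0.90 without control 1.

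**Figure D1:**
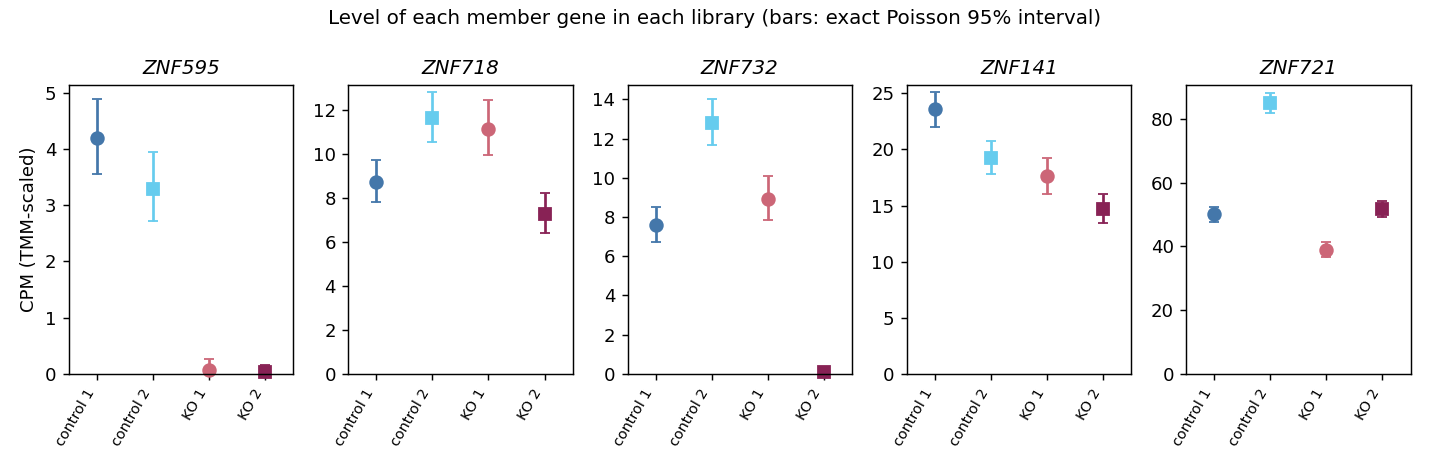
Level of each gene of the cluster in each library, in CPM on an axis from 0 that differs between panels. Points are single libraries and bars are exact Poisson 95% intervals, which cover counting error only. ZNF595 lies near 0 in both KO libraries, ZNF732 near 0 in KO 2 alone, and the other 3 genes are present throughout.

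Of the 5 members, 0 were called by edgeR's quasi-likelihood test at an adjusted p under 0.05, where 5 of 19027 genes tested (0.0263%) were called, 4 of them lower in KO (0.021%). At an unadjusted p under 0.05 the count was 1 member, ZNF595, against 773 of all genes. DESeq2 called 1 member, ZNF595 again, against 60 of the 16813 genes to which it gave an adjusted p (0.357%). Both KO libraries lay below both controls for 2 members, ZNF595 and ZNF141, against 16.3% of all genes tested. No member (0 of 5) had both KO libraries above both controls, against 15.8% of all genes. The median log2 fold change of the members was -0.57, and that of all genes was 0.029. Since values of this contrast chose the members, these counts are given as a description only.

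The genes also differed in abundance from one another. Per kilobase of exonic sequence not shared with another gene on the same strand, ZNF721 stood at 10.5 and 17.9 CPM in the control libraries, against 8.20 and 10.9 in the knockout ones, the highest level in each library. ZNF732 (3.46 and 5.84 CPM per kilobase in control) and ZNF141 (4.10 and 3.35) came next and changed places between the controls. ZNF718 followed at 1.77 and 2.37 CPM per kilobase, and ZNF595 was lowest at 1.06 and 0.837. The order of ZNF718 and ZNF595 held in each library. In KO 2, ZNF732 stood at 0.0533 CPM per kilobase and ZNF595 at 0.00744, both below the other 3 genes. The lengths come from GENCODE 29. Its version numbers for the member genes are higher than those in the deposited counts, so another release was used for counting, and its lengths may differ.

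The division of reads within the cluster does not depend on library scaling. ZNF595 took 4.45% (Wilson 95% interval 3.82% to 5.18%) of the 3550 member reads of control 1 and 2.50% (2.09% to 2.98%) of the 4689 of control 2. In KO 1 it took 0.0949% of 2107 reads (0.026% to 0.345%) and in KO 2 0.0396% of 2527 (0.00699% to 0.224%). ZNF732 held 8.06%, 9.70% and 11.6% in control 1, control 2 and KO 1 but 0.158% (0.0616% to 0.406%) in KO 2. The share of ZNF721 ranged from 50.7% in KO 1 to 70.0% in KO 2 and that of ZNF141 from 14.6% in control 2 to 25.04% in control 1. The intervals of the controls did not overlap for ZNF141 or for ZNF721, so shifts of that size also arose within a group. Those of ZNF595 did not overlap between the controls either, and both of its KO intervals lay below both control intervals.

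**Figure D2:**
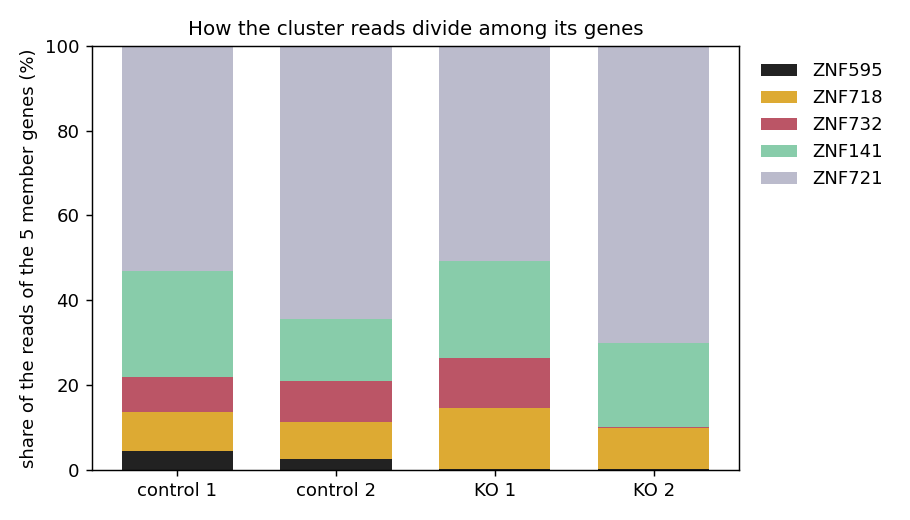
Share of the reads of the 5 genes taken by each gene, in percent, 1 bar per library. The ZNF595 segment is 4.45% and 2.50% in the controls and under 0.1% in both KO libraries, and the ZNF732 segment is 0.158% in KO 2.

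The summed level of all 5 genes was 94.1 and 132 CPM in the control libraries, against 76.6 and 73.9 in the knockout ones. The sum was mostly ZNF721 and ZNF141, and without ZNF595 and ZNF732 the remaining 3 genes still stood at 82.3 and 116 CPM in the control libraries, against 67.6 and 73.8 in the knockout ones. ZNF595 and ZNF718, which lie next to each other, together stood at 12.9 and 14.9 CPM in the control libraries, against 11.2 and 7.31 in the knockout ones. ZNF718 alone was within the control range in KO 1 and below it in KO 2.

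Genes around the cluster were followed over the first 2000000 bases of chromosome 4, a region that is deleted in Wolf-Hirschhorn syndrome. Of 66 such genes in the files, 40 had enough reads to be tested, among them 26 protein-coding genes. In edgeR's quasi-likelihood test 0 of the 40 were called over all genes, and DESeq2 called 0. In the edgeR test 1 of the 40 (CPLX1) had an unadjusted p under 0.05, against 773 of all 19027 genes tested. Both KO libraries lay below both controls for 8 of the 40 (20%) and above for 5 (12.5%), against 16.3% and 15.8% of all genes. Their median log2 fold change was -0.24. That of all genes was 0.029. With library size only, which shifts the median of all genes by -0.13 to -0.097, that of the neighbours was -0.38.

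The zinc finger pseudogene ZNF876P, which lies between ZNF718 and ZNF732, had 280 and 319 reads in control, 182 in KO 1 and 52 in KO 2, or 7.42, 8.98, 6.62 and 1.52 CPM. KO 2 was the lowest library, as for ZNF732, but here KO 1 also lay below both controls. The log2 fold change was -1.04 ± 0.63 (SE, edgeR adjusted p = 0.997). The pseudogene fragment ZNF519P4 had 0 reads in all 4 libraries. Just downstream of ZNF732 on its strand are 2 processed pseudogenes, named here after their values were seen. AC079140.5, 499 bases beyond the annotated end of ZNF732, had 49, 50 and 41 reads in control 1, control 2 and KO 1 and 0 in KO 2. AC079140.3, 1143 bases beyond that end, had 69, 59 and 54 reads in these libraries and 1 in KO 2. Both were thus low in the same library as ZNF732. Whether their reads belong to longer ZNF732 transcripts was not tested.

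On the side away from the telomere the cluster ends at PIGG, an enzyme of glycosylphosphatidylinositol anchor synthesis, whose 5′ end faces that of ZNF721 across 53 bases. PIGG stood at 43.0 and 46.8 CPM in the control libraries, and at 49.6 in KO 1 and 28.5 in KO 2 (log2 fold change -0.20, interval -0.95 to 0.55). Its groups overlapped. ABCA11P, the pseudogene that overlaps ZNF721, had 1.802, 1.38, 1.31 and 0.936 CPM, in the order control 1, control 2, KO 1 and KO 2. Among protein-coding neighbours with a mean CPM of 2 or more and with no overlap between the groups, the most negative log2 fold changes were those of RNF212 (-1.32), UVSSA (-0.74) and DGKQ (-0.29). RNF212, a factor of meiotic recombination, stood at 3.68 and 5.63 CPM in the control libraries, against 2.69 and 1.11 in the knockout ones. The most positive were those of the histone methyltransferase gene NSD2 (0.38), the spindle gene TACC3 (0.37) and NELFA (0.35), a subunit of the negative elongation factor. Each of these 6 had an edgeR adjusted p of 0.997.

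**Figure D3:**
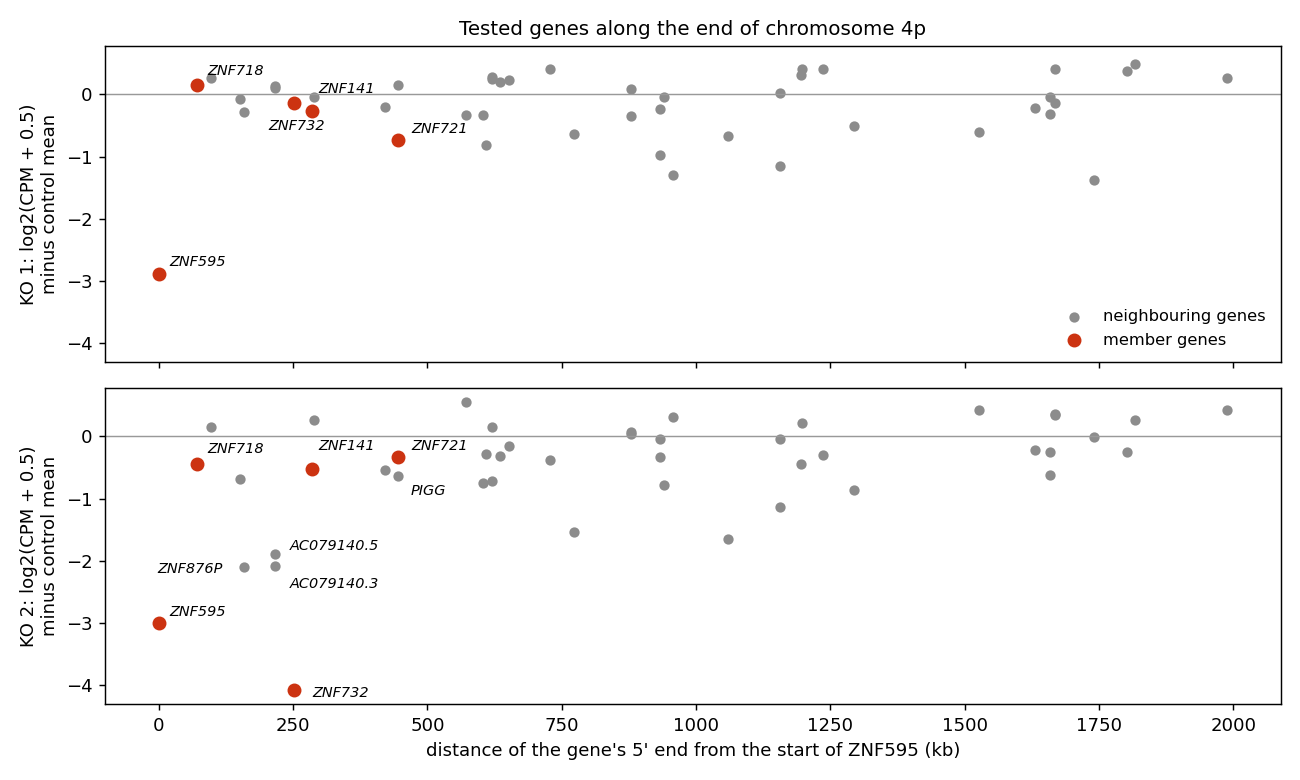
Difference of each KO library from the control mean in log2(CPM + 0.5) for the 5 members and 40 neighbouring genes, by distance of the 5′ end from the start of ZNF595 in kilobases. KO 1 (top) is lowest at ZNF595 and KO 2 (bottom) at ZNF732 and ZNF595. Other genes lie more than 1 unit below the control mean as well, among them FGFR3 and FGFRL1 in KO 1, outside the cluster, and ZNF876P, RNF212 and CPLX1 in KO 2, while ZNF718, ZNF141 and ZNF721 lie within 1 unit of the control mean in both.

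ZNF595 and ZNF732 were set against other KRAB zinc finger genes. Of 300 genes of this class in GENCODE 29, 298 were in the files and 272 were tested, 268 of them outside the cluster. In edgeR's quasi-likelihood test 0 of these 268 were called, and 8 had an unadjusted p under 0.05, against 773 of all 19027 genes tested. DESeq2 called 0 of them. Among the 268, both KO libraries lay below both controls for 71 (26.5%) and above for 29 (10.8%), against 16.3% and 15.8% of all genes. Their median log2 fold change was -0.13, beside 0.029 for all genes. With upper-quartile factors the 2 medians were -0.22 and -0.054, and with library size only they were -0.25 and -0.097. On chromosome 19, where 175 were tested, 50 were lower and 15 higher without overlap. On chromosome 7, where 17 were tested, 4 were lower and 3 higher. No gene of the class on chromosome 4 was found outside the cluster.

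Falls of at least 4-fold in both KO libraries were uncommon. A rule chosen after the values were seen asked for both KO libraries at least 4-fold below both controls on the scale of CPM + 0.5. It took 27 genes (0.142% of those tested), and of the 272 genes of the class ZNF595 was the 1 among them. The rule does not ask for near loss: the zinc exporter gene SLC30A1 met it with 32.9 CPM left in KO 1 and 28.7 in KO 2. A gene with low CPM in the controls cannot meet it even at 0 reads, and such genes are among those tested. The counts for single libraries below share this limit. The class was built from pattern matches in annotated transcripts and is not complete: the zinc finger gene ZNF717, which it does not hold, also met the rule, with 153 and 193 reads in control and 3 and 13 in KO. The opposite, with both KO libraries at least 4-fold above both controls, was found in 2 genes (0.0105%) and in 0 members. The pattern of ZNF732, with KO 2 alone at least 4-fold below each of the other 3 libraries, was found in 61 genes (0.321%). KO 1 alone was that low in 15 genes (0.0788%), and either control alone in 0. Besides ZNF732, 5 KRAB zinc finger genes shared the KO 2 pattern. ZNF680, on another chromosome, had 338, 297 and 258 reads in control 1, control 2 and KO 1 and 1 in KO 2. ZNF248 had 173, 144 and 171 reads and ZNF572 148, 121 and 97, with 0 in KO 2 for both. ZNF132 had 212, 164 and 83 reads against 8, and ZNF587B 1426, 1507 and 1313 against 309. The opposite was seen at ZNF880, with 9, 14 and 18 reads against 1057 in KO 2.

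**Figure D4:**
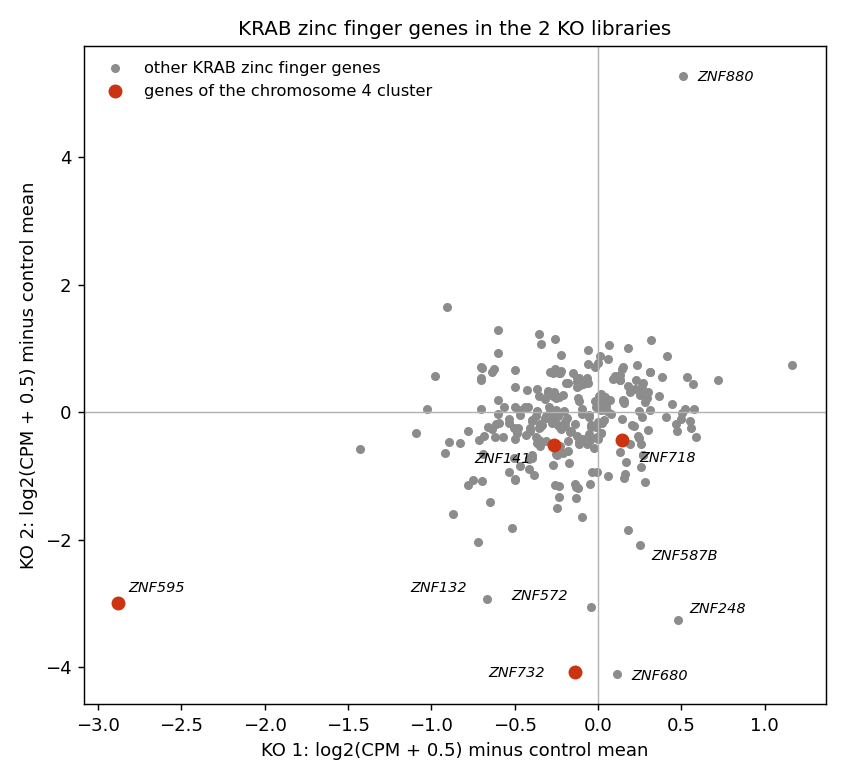
Difference from the control mean in log2(CPM + 0.5) for each of the 272 tested genes of the KRAB zinc finger class, KO 1 on the horizontal and KO 2 on the vertical axis, 1 point per gene. ZNF595 is alone at the lower left, and ZNF732 lies at the bottom beside ZNF680, low in KO 2 and near the control mean in KO 1. ZNF721 is not in this class and is not drawn.

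By the rule for naming genes of the class, the most negative log2 fold changes among those with a mean CPM of 2 or more and without overlap were ZNF132 (-1.73), ZNF483 (-1.35), ZNF701 (-1.27) and ZNF460 (-1.17). ZNF483 stood at 17.9 and 32.1 CPM in the control libraries, against 14.4 and 5.44 in the knockout ones, and ZNF701 had 15.3 and 22.1 CPM against 9.86 and 5.76 CPM. The most positive were ZNF880 (5.65), ZNF71 (0.81), ZNF626 (0.70) and ZNF785 (0.64). ZNF71 stood at 11.6 and 12.9 CPM in the control libraries, against 15.4 and 27.5 in the knockout ones. None of the 8 was called, each with an edgeR adjusted p of 0.997.

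TRIM28, the co-repressor that KRAB domains bind, stood at 921 and 641 CPM in the control libraries, against 1102 and 1072 in the knockout ones (log2 fold change 0.48, interval -0.14 to 1.09), and SETDB1 had 50.7 and 52.7 CPM against 64.6 and 74.3 CPM (0.43, interval -0.18 to 1.03). Both KO libraries lay above both controls for each gene, and neither was called (edgeR adjusted p = 0.997). Of the 20 genes of the cofactor list, which also holds the zinc finger genes ZFP57 and ZNF445, 19 were tested. Of these, 0 were called in edgeR and 0 in DESeq2. In edgeR 0 had an unadjusted p under 0.05, against 773 of all 19027 genes tested. Without overlap 2 (10.5%) were lower and 5 (26.3%) higher in KO, against 16.3% and 15.8% of all genes. The gene not tested was ZFP57, a KRAB protein of imprinted loci, with 7 and 20 reads in control, 0 in KO 1 and 6 in KO 2.

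The genes whose pattern over the 4 libraries came closest to that of ZNF595 were taken from 12505 protein-coding genes with a control mean of at least 2 CPM. The measure was the Euclidean distance of log2(CPM + 0.5) from the control mean, and with 4 libraries in 2 groups it is a description. The nearest was MT1M, a metallothionein, at a distance of 0.469, with 122 and 151 reads in control and 2 and 0 in KO. SLC30A1, the zinc exporter of the plasma membrane, followed at 0.609, and then ZNF717 at 0.684. SLC30A1 was lower in KO but not nearly absent, with 174 and 211 CPM in control against 32.9 and 28.7 in KO. At low CPM the added 0.5 shrinks a fall on this scale, so a short distance does not mean an equal share of RNA left. AC100868.1 stood at 0.725 and C9orf64, which encodes an enzyme of queuosine salvage, at 0.822, the latter with 92 and 88 reads against 3 and 1. Nearest to ZNF732 was TRIM4, a ubiquitin ligase gene, at 0.324, with 239, 316 and 158 reads in control 1, control 2 and KO 1 and 1 in KO 2. ZNF680 followed at 0.629, CEBPZOS at 0.771, the DNA repair gene MGMT at 0.778 and the phosphatase gene DUSP2 at 0.892. MGMT had 236, 364 and 115 reads in these libraries and 4 in KO 2. CEBPZOS kept more, with 851, 944 and 733 reads and 62 in KO 2.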

How the data were processed

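RNA from 2 control and 2 SLC35F2 knockout libraries of H9 cells was measured by poly(A) sequencing with a stranded kit, per the labels' protocols. Reads went through cutadapt 1.8.1, FastQC 0.11.7, HTSeq 0.11.0 and STAR 2.6.0a (no order is recorded) with the build GRCh38, per the submitters' processing notes. What the authors deposited is raw counts, 1 whole number per gene. Strand setting and annotation release: not given in the sources used here. Overlapping genes, antisense ones included, may therefore share or lose reads. The 5 summary entries of each file, which name no gene, were left out of library sizes.

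Of 60483 identifiers, 56753 (93.8%) matched GENCODE 29 without their version. Libraries of 27824693 to 37978705 reads were scaled by TMM. Genes were filtered with filterByExpr (minimum count 10), leaving 19027. KO was compared with control by edgeR 4.0.16 (quasi-likelihood F test, robust, two-sided, R 4.3.3, limma 3.58.1), with Benjamini-Hochberg adjustment over all genes and a threshold of 0.05. Standard errors are the log2 fold change over the square root of F. The test was tried on simulated data first. The alternatives were other scalings, DESeq2 1.42.0, limma-voom, the legacy fit, quantile normalisation (which the labels mention), other filters, the replicate number as a block and each library left out.

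The members, lists, tests and rules for naming genes were chosen with earlier results of these data known. KRAB zinc finger genes were those whose translated GENCODE transcripts held at least 3 C2H2 matches and a KRAB match, since no protein table was used. Named were the members, SLC35F2, cluster pseudogenes, PIGG, any called gene of a list, TRIM28, SETDB1, the 3 most positive and 3 most negative protein-coding neighbours and the 4 most positive and 4 most negative KRAB genes of at least 2 CPM without overlap, and the 5 genes nearest in pattern to ZNF595 and to ZNF732.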

Additional observations from a re-analysis of the deposited data

How the results depend on the processing

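The counts of ZNF595 and ZNF732 need no model, and their low libraries were the same under every scaling. The fitted log2 fold change of ZNF595 was negative in all 14 alternatives, with -5.89 in limma-voom and -4.55 with quantile normalisation, and -6.83 to -5.61 with 1 library left out. That of ZNF732 was negative in all 14 as well, with -3.33 in limma-voom, and ran from -6.39 without KO 1 to -0.19 without KO 2. ZNF718 ran from -0.47 to 0.14, and its sign turned without control 2 (0.077) and without KO 2 (0.14). ZNF721 was -0.14 without control 2 and -0.90 without control 1, and ZNF141 stayed between -0.55 and -0.24. The ratio of KO to control for the sum of ZNF595 and ZNF718, 0.666, was 0.530 to 0.808 with 1 library left out.

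The count of calls over all genes depended on the setting. Against 5 with the edgeR fit, 0 were called with upper-quartile factors, library size only, limma-voom and a mean CPM of at least 1, with 801, 787, 681 and 523 genes at an unadjusted p under 0.05 in turn. The legacy fit and quantile normalisation called 1, no filter 8 and DESeq2 60. With the replicate block 76 were called. The numbers are not stated to mark a shared culture, and the deviations of same-numbered libraries had a correlation of 0.37 over genes. With 1 library left out the count ran from 3 to 1096, the highest without KO 1, a fit in which KO 2 stands alone and takes its spread from the controls. The cause of these differences was not tested. Among KRAB zinc finger genes 1, ZNF595, was called by DESeq2, without a filter, with the replicate block and without KO 2, and leaving out 1 library gave 0 to 22. Among chromosome 4 neighbours none was called in the settings that kept all 4 libraries. A fit with 1 library left out has a group of 1 library. Calls from such fits are included above for all genes and KRAB zinc finger genes, but not for the neighbours or the cofactor list. Among the neighbours, calls did occur in the fits without KO 1 and without KO 2. The cofactor list had 0 calls in the settings that kept all 4 libraries.

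The 4-fold rule depended on the pseudocount in alternatives added after the data were seen. With 0.1 in place of 0.5 it took 37 genes for both KO libraries and 193 for KO 2 alone, and with 1 it took 19 and 34, with ZNF595 and ZNF732 among them each time.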
